A study of Mus musculus with 18 samples.

Results

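The p53 pathway was examined gene by gene through 42 genes of a table of 35275, namely the p53 family (*Trp53*, *Trp63*, *Trp73*), 5 regulators of p53, and 5 arrest, 14 apoptosis and death receptor, 4 DNA repair and 11 metabolic, stress and secreted targets. Of these, 40 were found by their gene name, and *Tigar* and *Dglucy*, which the table lists under older clone names, were found by their Ensembl identifiers. The RNA came from cell lines grown from mouse malignant peripheral nerve sheath tumors (MPNSTs), each line from a separate tumor. The tumors arose in 129 Sv/Jae wild-type mice after an adenovirus carrying CMV-driven Cas9 and guide RNAs was injected into the sciatic nerve, and the age of the mice is not given in the sources used here. Both groups carry an *Nf1* deletion (genotype Nf1-/-), so the comparison has no *Nf1*-intact control. It also has no line with both p53 and *Cdkn2a* intact, so higher and lower only compare the genotypes. The second targeted gene was p53 (*Trp53* in the mouse) in the 3 *Nf1*/*p53* double-knockout (dKO) lines and *Cdkn2a* in the 3 *Nf1*/*Cdkn2a* dKO lines, here the p53-deleted and the Cdkn2a-deleted lines, and no line was treated. Every line was sequenced as 3 replicate libraries, which the study describes as separately plated samples of the line. They share a tumor, so the line was taken as the replicate.

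p53 is a transcription factor that stress stabilizes, and it switches on genes for cell cycle arrest, apoptosis, DNA repair and metabolism. *Mdm2*, itself a p53 target, encodes the ubiquitin ligase that marks p53 for degradation, and the ARF protein from the *Cdkn2a* locus holds MDM2 in check. Loss of p53 and loss of *Cdkn2a* are both known from MPNST, and they remove different steps of this loop.

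Library totals were 19560535 to 28312207 counts, and the 3 libraries of a line together held 65206479 to 73065228. Libraries of the same line differed by more than sampling noise in all 18 pairs (3.57 to 29.2 in chi-square divided by its degrees of freedom), so none was counted as a duplicate. The lines are labelled mesenchymal, and the 8 mesenchymal marker genes summed to 8323 to 22554 CPM (library counts put on a common total, with TMM normalization) in the p53-deleted lines and 10692 to 18403 in the Cdkn2a-deleted lines. The 5 muscle markers summed to 25.8 to 319 CPM in the p53-deleted lines and to 0.0288 to 0.529 in the others, where *Myod1*, *Myf5*, *Myog* and *Pax7* were at or near 0. The 9 Schwann cell markers summed to 3.87 to 73.2 and 1.40 to 3.21 CPM, the 7 leukocyte markers to 3.72 to 7.58 and 6.56 to 8.13, the 5 endothelial markers to 1.29 to 2.02 and 0.641 to 1.93, and the 4 epithelial markers to 2.67 to 739 and 8.26 to 611. The muscle sums thus separate the genotypes, but of their genes only *Myf5* was above a few CPM in each p53-deleted line. The part of the muscle sums in the p53 pathway values was not tested.

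Of the 42 genes, 40 passed the filter on low counts and 10 of these were higher in the Cdkn2a-deleted lines, while 0 were called lower. The called genes are *Trp53* itself, the regulators *Mdm2* and *Ccng1*, the apoptosis genes *Bax*, *Tnfrsf10b* and *Trp53inp1*, the DNA polymerase gene *Polk*, and the metabolic genes *Abhd4*, *Dglucy* and *Dcxr*. A gene was called at a Benjamini-Hochberg adjusted p under 0.05 over all 15207 genes tested, with edgeR's quasi-likelihood test on the summed counts of each line. Over all genes tested 1.8% were called, with 0.638% higher and 1.16% lower, against 25% of the 40 tested pathway genes. Without *Trp53*, whose own locus was cut in one genotype, 9 of 39 were called (23.1%).

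In bulk samples such as these, more RNA per cell and more cells that make it cannot be told apart. The fitted log2 fold change (*Nf1*/*Cdkn2a* dKO over *Nf1*/*p53* dKO throughout) was above 0 for 31 of the 40 genes and below 0 for 9, against 48.2% above 0 over all genes. Its median was 0.87 over the pathway genes and -0.02 over all genes tested. The 2 sets of 3 lines were apart, with no shared range, for 27 genes (67.5%, 25 higher and 2 lower), where 31.4% of all genes were apart, 14.8% higher and 16.6% lower. At an unadjusted p under 0.05 there were 24 pathway genes (60.0%), 22 of them higher and 2 lower, compared with 22.4% of all genes (9.81% higher and 12.5% lower). With each library taken alone, 21 of the 40 genes still did not overlap between genotypes, against 13.5% of all genes.

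**Figure D1:**
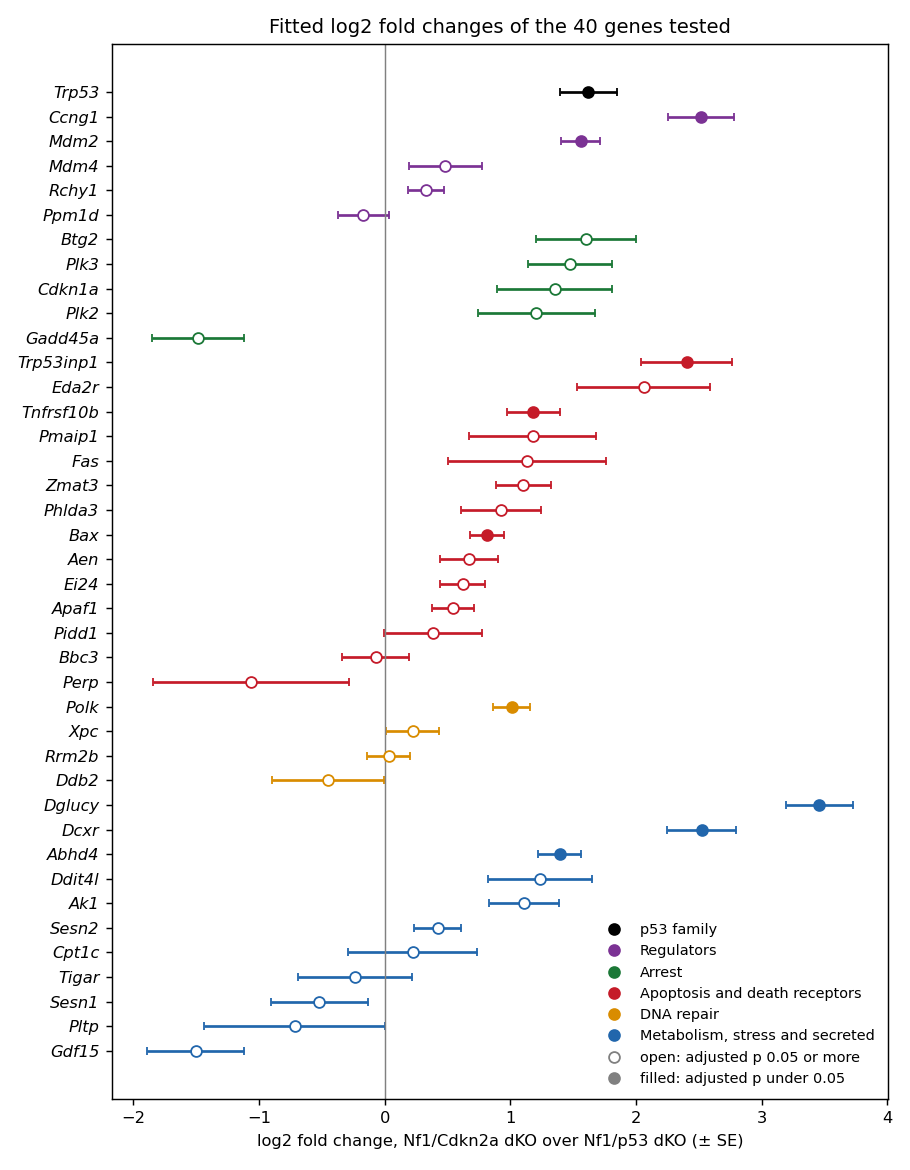
Fitted log2 fold change (x axis, *Nf1*/*Cdkn2a* dKO over *Nf1*/*p53* dKO, bars ± SE) of each of the 40 genes tested, colored by role and ordered within it; filled circles have an adjusted p under 0.05. All 10 filled circles lie to the right of 0, from 0.81 for *Bax* to 3.46 for *Dglucy*, and the lowest open circles are *Gdf15* at -1.50 and *Gadd45a* at -1.48.

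Not 1 of the 10 calls held in every set of lines. Leaving out Cdkn2a-deleted line 1 or line 2 left 0 pathway genes called (0% and 0.0127% of all genes), and leaving out line 3 left *Dglucy* alone (0.145%). Without p53-deleted line 1, 2 or 3, there were 5, 2 and 6 calls, against 1.11%, 0.173% and 0.681% of all genes. The fitted values moved less: over the 6 leave-outs the log2 fold change stayed between 3.33 and 3.54 for *Dglucy*, 1.48 and 1.69 for *Mdm2*, 2.30 and 2.68 for *Ccng1*, and 0.75 and 0.88 for *Bax*. DESeq2 on the same 6 lines called 21 pathway genes and 14.3% of all genes, and limma-voom, with lines as random effects, 21 and 16.6%. With all 18 libraries taken as independent, edgeR called 29 (46.5% of all genes), or 29 with the library number as a block (43.3%), and DESeq2 31 (48.9%). Size factors from DESeq2, raw totals or a minimum of 10 counts in every line gave 9 calls each (1.85%, 2.78% and 1.73% of all genes), no filter gave 11 (1.72%), and a block on the line number 0 (0%).

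Before the single genes, the start regions of those called are shown. p53 binds DNA at a pair of 10-base half-sites, and the called genes can be read beside matches to 1 half-site. RefSeq promoter windows (GRCm38.p6, from 250 bases before to 50 bases after an annotated start) were found for 33 of the 42 genes, and 14 of these (42.4%) held at least 1 match to the p53 half-site consensus, which reads the same on both strands, against 9.55% of 27025 genes with a window. Some genes have several windows, and counted by window the shares were 31.9% of 47 and 8.36% of 32851. Matches lay in 6 of the 8 called genes with a window, and *Tnfrsf10b* and *Trp53inp1* had none to search. A pair of half-sites with at most 13 bases between them occurred in 1 pathway gene, *Cdkn1a* (3.03%), in 0 of the called genes, and in 0.074% of all genes. *Cdkn1a* was not called and is printed because its values, described later, were seen. The stretches below run 5′ to 3′ on the strand of the gene, with the half-site matches in capitals. A match describes letters in a window and no binding was measured. The listed genes were chosen as members of the p53 pathway, so a share above that of all genes is no support for the calls.
Trp53: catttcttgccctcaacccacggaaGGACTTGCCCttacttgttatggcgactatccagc
Mdm2: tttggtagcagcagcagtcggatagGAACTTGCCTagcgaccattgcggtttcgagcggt
Ccng1: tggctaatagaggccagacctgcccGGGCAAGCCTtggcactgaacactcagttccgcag
Bax: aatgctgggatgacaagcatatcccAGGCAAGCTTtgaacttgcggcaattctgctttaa
Polk: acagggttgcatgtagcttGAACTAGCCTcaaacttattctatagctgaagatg
Abhd4: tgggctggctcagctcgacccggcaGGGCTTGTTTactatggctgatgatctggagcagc
Cdkn1a: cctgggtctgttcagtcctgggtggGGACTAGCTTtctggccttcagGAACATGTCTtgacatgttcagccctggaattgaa

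The *Trp53* stretch lies at chr11:69580259-69580318 on the plus strand and *Mdm2* at chr10:117710910-117710969, *Ccng1* at chr11:40755437-40755496 and *Bax* at chr7:45467065-45467124 on the minus strand. *Polk* lies at chr13:96519384-96519437 on the minus strand, and *Abhd4* at chr14:54259259-54259318 and *Cdkn1a* at chr17:29090881-29090962 on the plus strand. In GENCODE M21 the half-sites of *Trp53*, *Mdm2*, *Ccng1*, *Bax* and *Cdkn1a* fall upstream of the gene, by 66, 177, 151, 192, and 61 and 39 bases. Those of *Polk*, in an intron, and of *Abhd4*, in an exon, belong to windows of internal RefSeq starts. The 2 half-sites of *Cdkn1a* are 12 bases apart. A further window of *Cdkn1a*, at chr17:29093519-29093818, held 0 matches, as did the other windows of *Polk* and *Abhd4*.

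**Figure D2:**
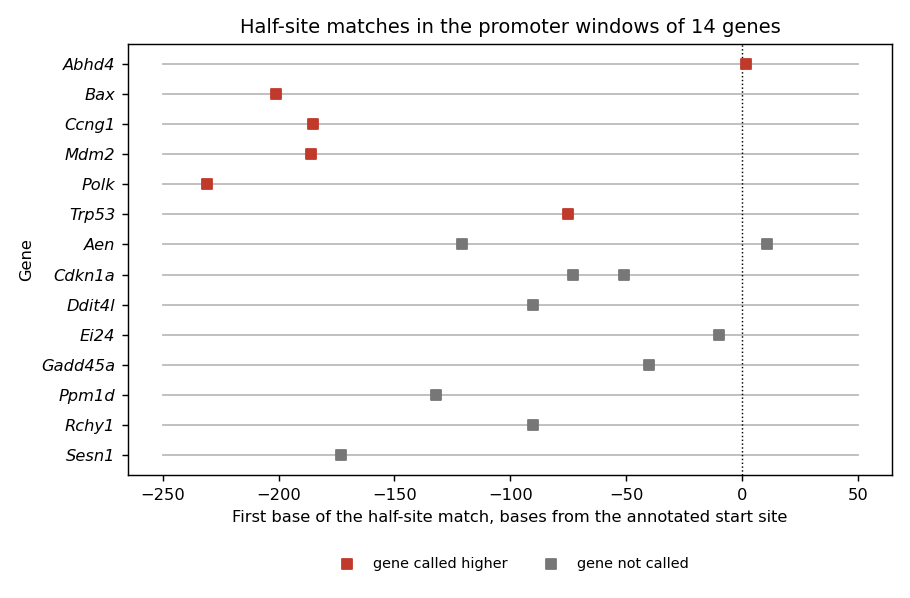
Position of each half-site match (squares, first base) in the promoter windows of the 14 genes that hold one, in bases from the annotated RefSeq start (dotted line at 0); red squares belong to called genes and grey ones to genes not called. The matches of called genes range from -231 for *Polk* to 2 for *Abhd4*. *Cdkn1a* has 2 half-sites, while the 2 squares of *Aen*, at 11 and -121, are the same half-site in 2 overlapping windows.

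In the p53 family, *Trp53* was the only gene with counts to test. Its level was 94.1, 67.5 and 58.7 CPM in p53-deleted lines 1 to 3 and 247, 246 and 185 CPM in Cdkn2a-deleted lines 1 to 3. All 3 Cdkn2a-deleted lines were above all p53-deleted lines, and the fitted log2 fold change was 1.62 ± 0.23 (SE, adjusted p = 0.0361). *Trp53* RNA was thus lower but still counted where the gene had been cut, and counts over a whole gene do not show whether a small insertion or deletion is present or whether protein is made. *Trp63* and *Trp73*, the related transcription factor genes, were near 0: *Trp63* had 3 counts in all p53-deleted libraries together and 6 in the Cdkn2a-deleted libraries, and *Trp73* had 7 counts, all in 1 library of p53-deleted line 1. The other targeted genes overlapped between the genotypes. *Cdkn2a* measured 363, 279 and 42.9 CPM in the p53-deleted lines and 169, 391.6 and 285 CPM in the Cdkn2a-deleted lines (log2 fold change 0.30 ± 0.71, adjusted p = 0.83). *Nf1* measured 70.0, 33.5 and 27.7 CPM against 12.7, 38.3 and 16.2 CPM (-0.96 ± 0.52, adjusted p = 0.328). These levels do not check the *Cdkn2a* label, since transcripts of an edited gene can still be counted.

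**Figure D3:**
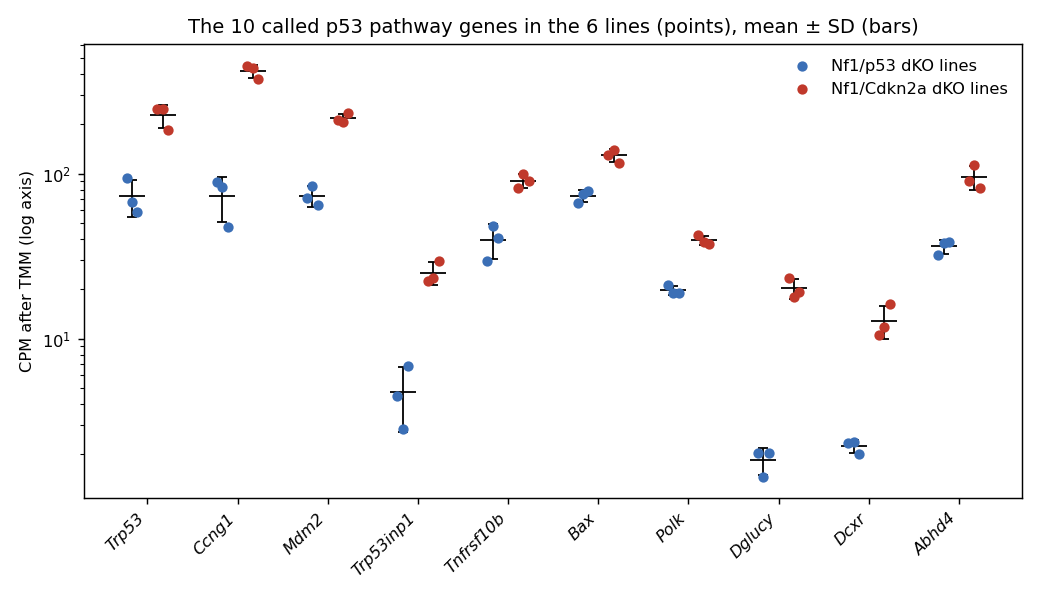
CPM after TMM (y axis, log scale) of the 10 called genes in each of the 6 lines (points, 3 per genotype), with the mean ± SD of the 3 lines (bars). For every gene the 3 *Nf1*/*Cdkn2a* dKO points lie above the 3 *Nf1*/*p53* dKO points, with the widest gap at *Dglucy*.

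Among the regulators, *Mdm2* and *Ccng1* were called higher in the Cdkn2a-deleted lines and the other 3 were not called. *Ccng1*, which encodes cyclin G1, measured 88.4, 82.9 and 47.8 CPM in the p53-deleted lines and 446, 437 and 375 CPM in the Cdkn2a-deleted lines. The genotypes were far apart for this gene, by 2.52 ± 0.26 on the log2 scale (adjusted p = 0.021). *Mdm2* measured 71.6, 84.8 and 64.4 CPM against 212, 206 and 233 CPM. Here too the lines kept close together within a genotype, and the difference was 1.56 ± 0.15 (adjusted p = 0.0198). *Mdm4*, whose protein is related to MDM2 and also restrains p53, reached 48.8, 56.4 and 25.4 CPM in the p53-deleted lines and 60.2, 59.7 and 62.6 CPM in the others. The low p53-deleted line 3 set most of that distance, and the log2 fold change of 0.48 ± 0.29 was not called (adjusted p = 0.371). The fitted log2 fold change of *Rchy1*, a ubiquitin ligase gene, was 0.33, and that of the phosphatase gene *Ppm1d* was the lowest of the group at -0.17 (16.1, 16.8 and 22.9 CPM against 15.5, 17.3 and 16.9 CPM, overlapping).

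Scaled to exon length (CPM per kilobase of merged GENCODE exons), the order of the transcripts differed between the genotypes. In the Cdkn2a-deleted lines *Ccng1* had the highest mean level of the 42 genes, at 119 CPM per kilobase, followed by *Bax* at 82.0 and *Phlda3* at 69.8. In the p53-deleted lines *Bax* was first at 46.7 CPM per kilobase and *Phlda3* next at 36.7, while *Ccng1* stood at 20.8. *Mdm2* stood at 14.5 and 42.7 CPM per kilobase and *Trp53* at 18.2 and 55.8.

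Of the 5 arrest genes, 0 were called by edgeR, although for each of them the 2 sets of lines were apart and all 5 had an unadjusted p under 0.05 (31.4% of all genes were apart and 22.4% had such a p). DESeq2 on the 6 lines called *Cdkn1a*, *Btg2*, *Plk3* and *Gadd45a*. *Cdkn1a*, which encodes the cyclin-dependent kinase inhibitor p21, measured 33.0, 41.3 and 108 CPM in the p53-deleted lines and 180, 158 and 128 CPM in the Cdkn2a-deleted lines. p53-deleted line 3 stood well above the other lines of its genotype and just below the lowest Cdkn2a-deleted line. Its 3 libraries gave 107, 108 and 109 CPM, so the libraries of that line lay close together, while the other 6 libraries of the genotype ranged from 31.7 to 44.0 CPM. The log2 fold change was 1.35 ± 0.46 (adjusted p = 0.155), and it was 2.07 without p53-deleted line 3, with an adjusted p of 0.0380. Line 3 also had the highest muscle marker sum, 319 CPM, and whether that bears on *Cdkn1a* was not tested.

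*Btg2*, an antiproliferative gene, had the highest fold change of the arrest group, with 5.17, 4.10 and 2.06 CPM against 9.47, 10.6 and 14.4 CPM (1.60 ± 0.40, adjusted p = 0.0885). The polo-like kinase genes *Plk3* and *Plk2* had log2 fold changes of 1.48 (adjusted p = 0.0753) and 1.21 (adjusted p = 0.194). For *Plk2*, Cdkn2a-deleted line 2 was far above the rest at 393 CPM, next to 152 and 165 CPM in the other lines of that genotype and 58.4 to 126 CPM in the p53-deleted lines. *Gadd45a*, a growth arrest and DNA damage gene, ran the opposite way. It measured 4.98, 7.75 and 8.59 CPM in the p53-deleted lines and 1.72, 2.97 and 2.92 CPM in the Cdkn2a-deleted lines (-1.48 ± 0.36, adjusted p = 0.0867). An antisense gene, *E230016M11Rik*, overlaps its exons at 0.297 to 0.877 CPM, and the counting is not stated to use strand.

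The apoptosis group held 14 genes, of which 3 were called higher (21.4%, with 0.638% of all genes called higher). A fitted value above 0 was found for 12 (85.7%, with 48.2% of all genes). For 9 genes (64.3%) the lines did not overlap, all 9 higher in the Cdkn2a-deleted lines, where 14.8% of all genes were apart and higher. *Trp53inp1*, a stress-induced gene linked to autophagy and cell death, measured 4.50, 2.83 and 6.86 CPM in the p53-deleted lines and 22.2, 23.3 and 29.6 CPM in the others. It had the highest fold change of the group, 2.40 ± 0.36 (adjusted p = 0.0403). *Bax*, the pore-forming effector of mitochondrial apoptosis, measured 66.9, 75.1 and 78.7 CPM against 130, 140 and 117 CPM. That difference was small but even, at 0.81 ± 0.14 (adjusted p = 0.0465), and the call was lost when raw total counts replaced TMM. *Tnfrsf10b*, a death receptor gene, measured 29.6, 48.5 and 41.0 CPM against 81.7, 99.0 and 90.1 CPM. Its log2 fold change of 1.18 ± 0.21 was the closest to the threshold (adjusted p = 0.0499), and the call was lost with DESeq2's size factors and with a minimum of 10 counts in every line.

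Other receptor and signaling genes in this group leaned the same way without a call. *Eda2r*, a receptor gene of the same superfamily, had the second highest fold change, 2.06 ± 0.53 (adjusted p = 0.0923), with 7.46, 2.84 and 11.6 CPM against 40.0, 30.7 and 20.6 CPM. *Zmat3*, an RNA-binding protein gene, came closest to a call at 1.10 ± 0.22 (adjusted p = 0.059), and it was called when no filter was applied. *Phlda3*, an inhibitor of AKT, stood at 0.93, and *Fas*, another death receptor gene, at 1.13 with overlapping lines and a mean of 1.09 CPM in the p53-deleted lines.

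The effectors of mitochondrial apoptosis were uneven. The BH3-only genes *Bbc3* (PUMA) and *Pmaip1* (NOXA) had fitted log2 fold changes of -0.07 ± 0.27 and 1.18 ± 0.51, and both overlapped between genotypes. *Bbc3* measured 5.62, 9.21 and 8.47 CPM against 7.65, 7.72 and 6.79 CPM, so no line of either genotype stood apart. *Apaf1*, which encodes the scaffold of the apoptosome, *Aen* and *Ei24* had values of 0.55, 0.67 and 0.62, each with the Cdkn2a-deleted lines above the others. *Pidd1* stood at 0.39. *Perp*, a membrane protein gene, was the lowest of the group at -1.06 ± 0.78 (adjusted p = 0.465), with 3.60, 4.98 and 0.595 CPM against 1.06, 0.966 and 2.36 CPM. p53-deleted line 3 was the lowest of the 6 lines and the other p53-deleted lines the highest.

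**Figure D4:**
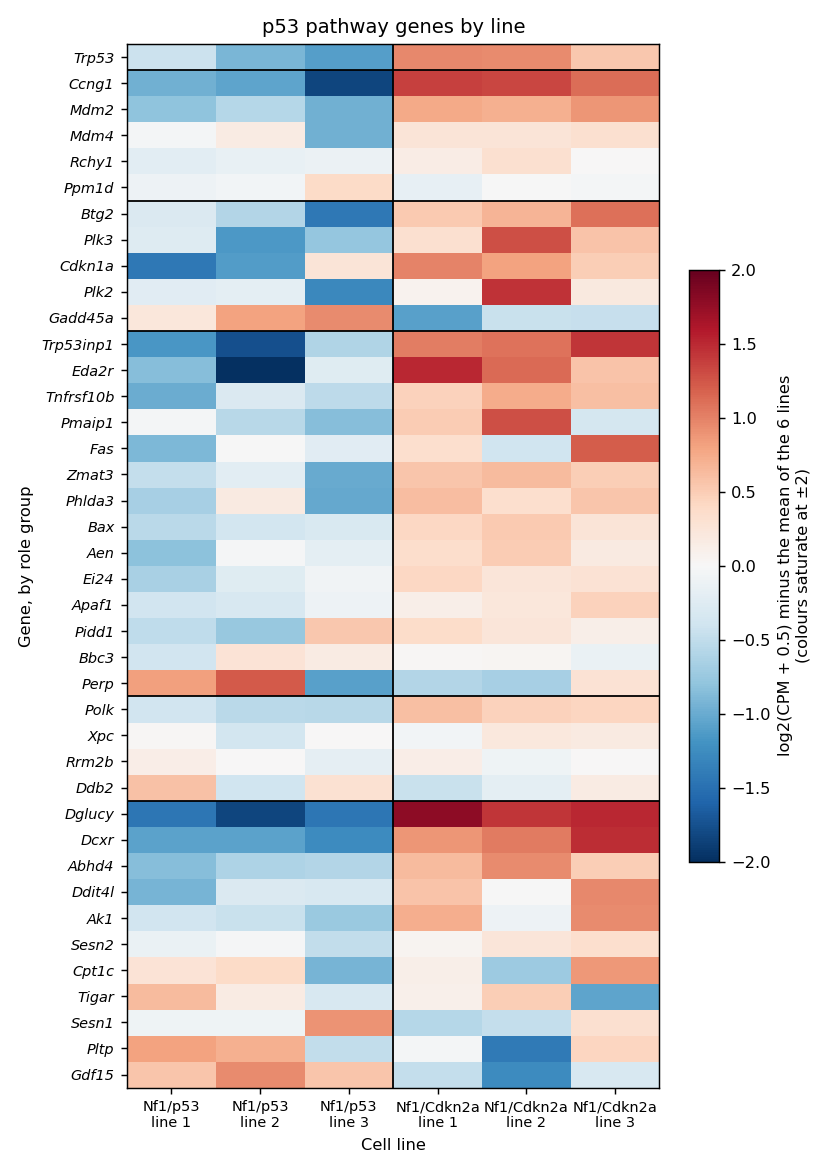
Level of each of the 40 genes tested (rows, grouped by role) in the 6 lines (columns) as log2(CPM + 0.5) minus the mean of the 6 lines; red is above and blue below that mean, and colors saturate at 2 and -2. Most rows are blue in the left 3 columns and red in the right 3, while *Gadd45a* and *Gdf15* show the opposite order.

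In the repair group only *Polk* was called higher in the Cdkn2a-deleted lines. It encodes a translesion DNA polymerase and measured 21.2, 19.0 and 18.9 CPM in the p53-deleted lines and 42.5, 38.8 and 37.7 CPM in the Cdkn2a-deleted lines. The level was close to the same within each genotype and the difference was 1.01 ± 0.14 (adjusted p = 0.0388). The genes that recognize ultraviolet lesions, *Xpc* and *Ddb2*, and the ribonucleotide reductase subunit gene *Rrm2b* overlapped between genotypes, with log2 fold changes of 0.22, -0.45 and 0.03. *Ddb2* was the lowest of the group, at 2.89, 1.20 and 2.27 CPM against 1.16, 1.47 and 2.02 CPM (adjusted p = 0.586). Exons of *Acp2*, at 34.0 to 42.4 CPM, overlap *Ddb2* on the other strand, so the low *Ddb2* counts are uncertain.

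The largest fold change of all 40 genes was in the metabolic group. *Dglucy*, which encodes D-glutamate cyclase, measured 2.04, 1.44 and 2.02 CPM in the p53-deleted lines and 23.5, 18 and 19.1 CPM in the Cdkn2a-deleted lines. The lines of a genotype lay close together, and the log2 fold change was 3.46 ± 0.26 (adjusted p = 0.017). *Dcxr*, a dicarbonyl and L-xylulose reductase gene, measured 2.35, 2.36 and 2.01 CPM against 10.6, 11.8 and 16.2 CPM (2.52 ± 0.28, adjusted p = 0.0248). *Abhd4*, a lipid hydrolase gene, measured 32.3, 37.8 and 38.7 CPM against 90.5, 112 and 82.3 CPM (1.39 ± 0.17, adjusted p = 0.0272).

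The remaining 8 genes of the group were not called and pointed both ways. *Ddit4l*, whose protein restrains mTORC1, and the adenylate kinase gene *Ak1* had log2 fold changes of 1.24 and 1.11 with no overlap between lines. The sestrin genes *Sesn1* and *Sesn2*, which link stress to mTORC1, had opposite signs, at -0.52 and 0.42. *Tigar*, a fructose bisphosphatase gene, stood at -0.24, *Cpt1c* at 0.22 and the phospholipid transfer gene *Pltp* at -0.71, all with overlapping lines. *Ctsa*, at 122 to 310 CPM, overlaps the exons of *Pltp* on the other strand, which makes its 0.519 to 4.24 CPM uncertain. *Gdf15*, a secreted cytokine gene, was the lowest of the 40 genes, with 6.07, 8.09 and 6.03 CPM against 2.70, 1.36 and 3.07 CPM. The p53-deleted lines were all higher, yet the difference of -1.50 ± 0.39 was not called (adjusted p = 0.0923).

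**Figure D5:**
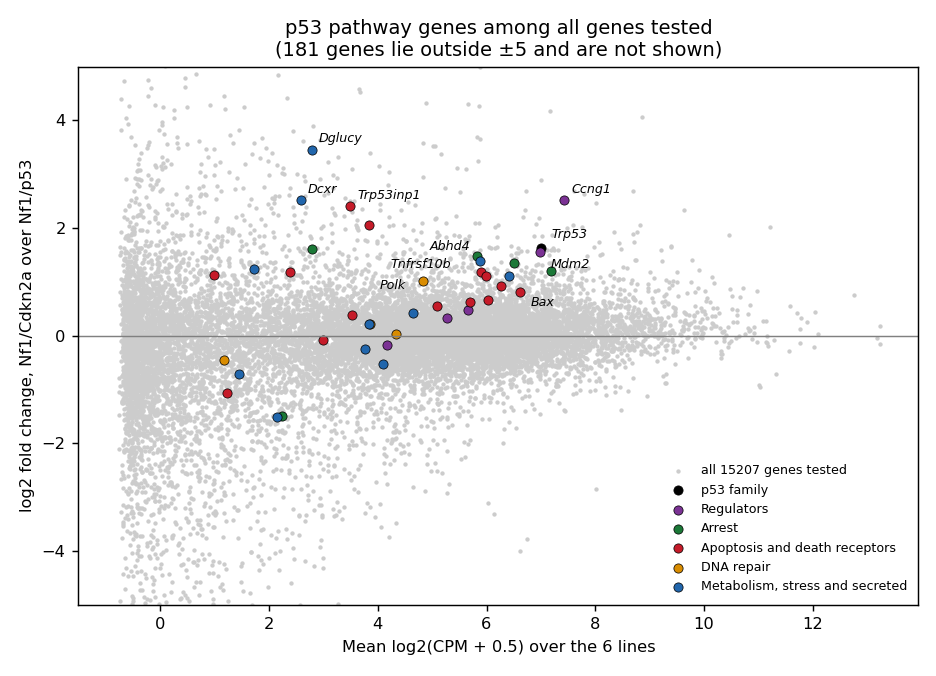
Log2 fold change (y axis, *Nf1*/*Cdkn2a* dKO over *Nf1*/*p53* dKO) against the mean log2(CPM + 0.5) over the 6 lines (x axis) for all 15207 genes tested (grey) and the p53 pathway genes (colored by role, with the 10 called genes named); 181 genes beyond 5 or -5 are not shown. The called pathway genes lie above 0 and range from low-level transcripts such as *Dcxr* to abundant ones such as *Ccng1*.

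Over the 39 genes outside the family, the median log2 deviation from the mean of the 6 lines was -0.39, -0.28 and -0.49 in p53-deleted lines 1 to 3 and 0.35, 0.32 and 0.43 in Cdkn2a-deleted lines 1 to 3. p53-deleted line 3 had the lowest level of the 6 lines for 15 of the 39 genes and the highest for 4. Cdkn2a-deleted line 3 had the highest level for 11 genes and the lowest for 1. Within a genotype, a median of 86.4% of the variance between libraries of a pathway gene lay between lines (77.0% over all genes). This share was 98.7% for *Cdkn1a* and 99.3% for *Plk2*, but 11.6% for *Polk*, 13.7% for *Bax*, 26.7% for *Dglucy* and 28.8% for *Dcxr*.

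The 42 genes do not cover all p53 targets, so a list of 42 further targets was read beside them. Of its 41 genes tested, 3 were called (7.32%, with 1.8% of all genes), 2 higher and 1 lower, and its median log2 fold change was 0.05. The 2 sets of lines were apart for 19 genes (46.3%, 12 higher and 7 lower), with 31.4% of all genes. At an unadjusted p under 0.05 in the edgeR test there were 17 genes (41.5%, 13 higher and 4 lower), with 22.4% of all genes. A fitted value above 0 was found for 23 genes (56.1%), near the 48.2% of all genes. *Sulf2*, an extracellular sulfatase gene, had the highest value, with 2.08, 1.90 and 3.51 CPM against 75.6, 60.6 and 35.8 CPM (4.52 ± 0.41, adjusted p = 0.0189). *Slc19a2*, a thiamine transporter gene, measured 14.7, 12.9 and 10.6 CPM against 53.4, 64.3 and 30.7 CPM (1.96 ± 0.30, adjusted p = 0.0427). *Mgmt*, a DNA repair methyltransferase gene, went the other way, with 2.45, 2.77 and 2.42 CPM in the p53-deleted lines and at most 3 counts in any Cdkn2a-deleted library. It was at least 18.6-fold lower there, taking 3 counts per library as the limit (adjusted p = 0.0465). *Sco2* had 0 counts in all libraries.

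Upstream of p53, the kinases, ribosomal proteins, cofactors and ligases were compared as well. Among 26 regulators and cofactors 0 were called by edgeR on the lines, 0 by DESeq2 on the lines and 0 by limma-voom, and 1, *Atm*, had an unadjusted p under 0.05. The DNA damage kinase gene *Chek1* had the lowest value, -0.56, and *Trp53bp2*, which encodes a p53-binding protein, the highest, 0.52. Their median was 0.06.

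Genes of the integrated stress response, the program of ATF4 and CHOP, were read beside the pathway. This program can also raise *Gdf15*, *Sesn2*, *Pmaip1*, *Tnfrsf10b* and *Bbc3*. Of 16 tested, 3 were called lower in the Cdkn2a-deleted lines (18.8%, with 1.16% of all genes called lower). A fitted value above 0 was found for 6 (37.5%, with 48.2% of all genes). The median was -0.58. *Trib3*, a pseudokinase gene, had the lowest value, with 21.5, 23.0 and 10.6 CPM against 3.59, 4.62 and 4.72 CPM (-2.09 ± 0.35, adjusted p = 0.0465). *Asns* and *Phgdh*, of asparagine and serine synthesis, were lower by 1.37 and 1.38 on the log2 scale (adjusted p = 0.0465 for each). *Atf3* had the highest value, 0.61 (adjusted p = 0.45). *Gdf15* and *Trib3* were both higher in each p53-deleted line than in any Cdkn2a-deleted line. The shared genes *Tnfrsf10b*, *Pmaip1* and *Sesn2* had log2 fold changes above 0, at 1.18, 1.18 and 0.42, and *Bbc3* stood at -0.07. Whether the stress response bears on *Gdf15* or on these genes was not tested.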

How the data were processed

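RNA-seq libraries were prepared and sequenced by a company, and the authors deposited raw counts per gene and library, with no normalization. The submitters' processing notes name CASAVA, STAR 2.5, DESeq2 1.14.1 and the build GRCm38/mm10; the counting tool, its strand setting and its annotation are not given in the sources used here. The study's statistics name DESeq2. Its text gives 2 biological replicates per condition, and a legend 3 lines in triplicate, as the labels do.

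Counts of the 3 libraries of a line were summed, filtered with filterByExpr (minimum count 10, minimum total 15), scaled with TMM and tested with edgeR's quasi-likelihood test (edgeR 4.0.16, limma 3.58.1, DESeq2 1.42.0, R 4.3.3) with Benjamini-Hochberg adjustment over 15207 genes. The script was tested on simulated data. With 3 lines per genotype, p-values measure the spread between these lines. Bounds cover counting error only. Gene positions and merged exon lengths came from GENCODE M21, and promoter windows from RefSeq. Figures used Python 3.11.15 with matplotlib 3.10.9.

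The genes and lists were chosen with earlier results of these data known. All 42 genes are named; those called, the p53 family and the highest and lowest of each role group are given with full values, and of the other lists the called, highest and lowest genes, with *Atm*, *Sco2* and values per line of other genes chosen after they were seen. Alternatives treated all 18 libraries as samples (edgeR and DESeq2, or limma-voom, in which lines were random effects), ran DESeq2 on line sums, replaced TMM by the size factors of DESeq2 or by raw totals, changed the filter (none, or a minimum of 10 counts per line), blocked on line or library number, or dropped single lines. One single-gene result is not reported here.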

Additional observations from a re-analysis of the deposited data

Results flagged for a closer look

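Over the 9 libraries of a genotype, 1 of 80 groups of CPM values (40 genes in 2 genotypes) held a library far from the rest. Chance flags about 1 in 20 groups of independent values, but these 9 libraries come from 3 lines, with most of the variance between lines, so that rate does not apply to them as it stands. For *Mdm4* the lowest library was the third of *Nf1*/*Cdkn2a* dKO line 2, at 53.1 CPM, with the next at 58.9 CPM. The gap was 0.501 of the range of the group.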

How the results depend on the processing

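Taking the 18 libraries as separate samples, edgeR called 6096 genes, of which 29 were p53 pathway genes, 25 further p53 targets, 12 regulators and cofactors and 12 integrated stress response genes; DESeq2 gave 6409, 31, 25, 12 and 12 in that order. These fits count libraries of a line as independent. Limma-voom, with lines as random effects, gave 2173, 21, 13, 0 and 8, and DESeq2 on the 6 lines 2171, 21, 12, 0 and 7. Raw total counts called 423 genes (86 higher and 337 lower) and 6 stress response genes, shifted the median of all genes by -0.13 and gave a pathway median of 0.74. No filter called 411 genes. With the line number as a replicate block, 0 genes were called in the whole table and in each list, and with the library number as a replicate block 5681, 29, 25, 11 and 12. The numbers do not pair the samples: deviations correlated by -0.117, -0.13 and -0.0832 between lines of the same number and by 0.0671, -0.0532 and 0.0929 between libraries of the same number. Leaving out 1 line gave 0 to 172 calls over all genes, 0 to 6 in the pathway, 0 to 2 among further targets and 0 to 1 in the stress response, with a pathway median of 0.66 to 0.93; the 2 lowest counts over all genes, 0 and 2, came without *Nf1*/*Cdkn2a* dKO lines 1 and 2.

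The sign turned for 6 genes with log2 fold changes near 0, none of them called. Leaving out 1 line gave -0.26 to 0.013 for *Ppm1d*, -0.26 to 0.083 for *Bbc3*, -0.045 to 0.11 for *Rrm2b*, -0.59 to 0.11 for *Tigar*, -0.26 to 0.55 for *Cpt1c* and -0.18 to 0.81 for *Cdkn2a*. In addition *Bbc3* was 0.059 with limma-voom and *Rrm2b* -0.10 with raw totals. The cause was not tested. All 10 called genes kept their direction under every alternative.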
